A study of Mus musculus with 2 samples.

Results

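Uroplakins are the membrane proteins of the urothelium, the epithelium that lines the ureter and bladder. The 5 uroplakin genes Upk1a, Upk1b, Upk2, Upk3a and Upk3b were taken as all non-control probes that carry one of these names, which gave 5 probes, 1 for each gene, among 39429 probes on the array. The probe of each gene was printed in 4 spots, and all 5 genes passed the filter on dim probes, among 22311 genes or unnamed features kept.

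Uroplakin proteins assemble into crystalline plaques on the apical surface of superficial urothelial cells and help to make it a barrier to urine. Upk1a and Upk1b are tetraspanins, which span the membrane repeatedly, and each pairs with a partner. Upk1a pairs with Upk2 before it leaves the endoplasmic reticulum. Upk1b pairs with Upk3a or Upk3b. These partners all span the membrane a single time. Upk3b and Upk1b are also known as transcripts of mesothelium, the flat lining of the body cavities.

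The ureters came from wild-type NMRI mouse embryos of mixed sex at E13.75, where E counts days after conception. They were grown on membranes for 18 h either with NOGGIN at 10 µg/ml or without it. Secreted NOGGIN captures bone morphogenetic proteins (BMPs), signalling ligands, so that they cannot reach their receptors. The samples were hybridised to 2 two-colour arrays, 1 control with 1 NOGGIN sample on each, from 200 ng of total RNA per labelling. On array 1 the control carried AlexaFluor647 (red) and the NOGGIN sample AlexaFluor555 (green), and on array 2 the dyes were exchanged. Whether the numbered samples are separate litters or cultures is not stated, so the spread between them may be technical. The p-values set each ratio only against that spread, in large part as pooled over all genes. These were whole ureters, in which fewer cells of a type and less RNA per cell cannot be told apart.

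Between 65.3% and 76.9% of probes were well above background in each labelled channel, and no spot was saturated. The number of arrays limits the precision. As a check of the tissue, all 10 epithelial markers in a list that included Cdh1, Epcam and Krt8 were measured, and all 10 were above background in every one of their spots, as were all 8 mesenchymal markers. Across genes, which are not independent replicates, array 1 and array 2 correlated weakly (Pearson 0.179), and 12552 of 22311 genes had opposite signs on the arrays.

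The sources leave the sign of the comparison unsettled. All ratios here divide the NOGGIN channel by the control channel as the dyes are labelled. By that reading Id1, a transcription regulator induced by BMP signalling, was higher in the channel labelled NOGGIN, with log2 ratios of 2.21 and 2.08. So were all 5 BMP targets measured, the reverse of what the capture of BMPs by NOGGIN would give. The authors' deposited table, whose titles set NOGGIN against control, lists Id1 at signed folds of -4.65 and -4.53, the opposite sign if the titles give the order of division. Were the dye labels wrong, the signs below would all turn and the sizes would not. Positions relative to Id1 hold under either reading, so each uroplakin is also described by whether it lay on the side of Id1.

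The probes define what was measured, and the last 30 bases of each 60-base probe are shown 5′ to 3′ as the files give them, with any AATAAA in this stretch, the signal for adding a poly(A) tail, in capitals.
Upk1a: gttggctggacacccAATAAAtactggctg
Upk1b: gacgactctcattcctgtctatgtttaatg
Upk2: ctcttaactgtacttaattctcacAATAAA
Upk3a: aaatgacacacgactcacagatcacccagg
Upk3b: tggctattaatgacagtcggctacctagcc
The positions below are those of the files, on mouse build mm9, whose exon annotation was not used here. The Upk1a probe lies at chr7:31388111-31388170 on the minus strand, the Upk1b probe at chr16:38773859-38773918 on the minus strand, and the Upk2 probe at chr9:44260822-44260881 on the minus strand. The Upk3b probe lies at chr5:136520522-136520581 on the plus strand. The Upk3a probe covers chr15:84851819-84852720 on the plus strand, 902 bases for a probe of 60, so its sequence is split over an intron and it reads spliced RNA. The 5 genes lie on 5 different chromosomes. With 1 probe a gene, no second probe checks any value.

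Upk3b and Upk1a had the largest ratios of the uroplakins on both arrays. Each was higher in the NOGGIN channel on both, on the side of Id1, by a mean of 1.85-fold and 1.78-fold. On array 2 Upk1a lay nearer to Upk2 than to Upk3b, with log2 differences of 0.30 and -0.43. Upk2 lay on the same side with a smaller value, Upk3a was near 0 and Upk1b was slightly below 0. No uroplakin passed 0.05 after adjustment in limma's test, and neither did any other gene (0% of 22311). At an unadjusted p under 0.05 were 2 of the 5 uroplakins, Upk3b and Upk1a, and 6.04% of all genes. Upk3b, Upk1a and Upk2 (3 of 5) had both NOGGIN channels above both control channels, as did 14.3% of all genes. Values of single genes are therefore given as values.

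The integral membrane protein Upk3b, the partner of Upk1b outside the Upk3a pair, gave the most even result between the arrays and was the dimmest uroplakin. Its normalized log2 intensity was 8.91 in NOGGIN 1, 7.99 in control 1, 8.66 in NOGGIN 2 and 7.80 in control 2. The NOGGIN channels were well above the control channels, with no overlap. The log2 ratio was 0.92 on array 1 and 0.86 on array 2, a mean of 0.89 ± 0.04 (SD, n = 2; limma 95% interval 0.49 to 1.29, unadjusted p = 0.00207, adjusted p = 0.197). All 8 of its spots were above 0. Upk3b was the only uroplakin (1 of 5) to pass the 1.5-fold rule, which asks for that size on each array with the same sign. Of all genes 2.19% passed it, with 0.941% on the higher side and 1.25% on the lower. Of all genes, 1.03% had a higher mean log2 ratio.

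The tetraspanin gene Upk1a had a similar mean but uneven arrays. Its normalized log2 intensity was 12.56 in NOGGIN 1, 11.33 in control 1, 12.27 in NOGGIN 2 and 11.84 in control 2. The NOGGIN channels were again above the control channels, but the gap was narrower on array 2. The log2 ratio was 1.23 on array 1 and 0.43 on array 2, a mean of 0.83 ± 0.57 (SD, n = 2; limma 95% interval 0.24 to 1.43, unadjusted p = 0.0149, adjusted p = 0.486). On array 2 the 1.35-fold difference was below the 1.5-fold rule. All 8 of its spots were above 0, from 1.06 to 1.52 on array 1 and from 0.17 to 0.63 on array 2, so the spots of the arrays did not overlap.

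Upk2, the partner of Upk1a, lay on the same side as Upk1a with a smaller ratio. Its normalized log2 intensity was 10.52 in NOGGIN 1, 9.95 in control 1, 10.31 in NOGGIN 2 and 10.18 in control 2. Its groups did not overlap, although NOGGIN 2 and control 2 were close. The log2 ratio was 0.58 on array 1 and 0.13 on array 2, a mean of 0.35 ± 0.32 (SD, n = 2; limma 95% interval -0.12 to 0.82, adjusted p = 1). Of its 8 spots, 7 were above 0 and 1 was below.

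Upk3a, a partner of Upk1b and a common marker of urothelium, changed sign between the arrays. Its normalized log2 intensity was 13.39 in NOGGIN 1, 13.14 in control 1, 13.48 in NOGGIN 2 and 13.59 in control 2. The groups overlapped, since control 2 was the highest of the 4 channels and control 1 the lowest. The log2 ratio was 0.25 on array 1 and -0.10 on array 2, a mean of 0.07 ± 0.25 (SD, n = 2; limma 95% interval -0.37 to 0.52, adjusted p = 1). The interval holds differences in either direction.

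The other tetraspanin, Upk1b, was the only uroplakin with a mean below 0, on the side away from Id1. Its normalized log2 intensity was 11.88 in NOGGIN 1, 11.83 in control 1, 11.73 in NOGGIN 2 and 12.09 in control 2. The groups overlapped here too. The log2 ratio was 0.05 on array 1 and -0.37 on array 2, a mean of -0.16 ± 0.29 (SD, n = 2; limma 95% interval -0.62 to 0.30, adjusted p = 1).

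**Figure D1:**
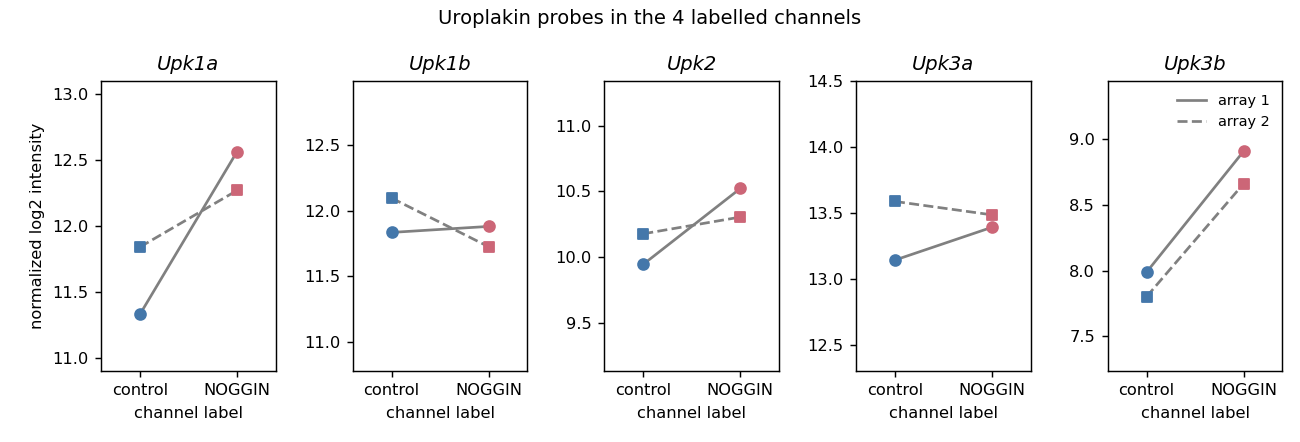
Normalized log2 intensity (y axis) of each uroplakin probe in the channels labelled control and NOGGIN (x axis), with a line joining the samples of an array and every panel spanning the same range. Upk3b goes from 7.99 to 8.91 and from 7.80 to 8.66, while the lines of Upk1b and Upk3a go opposite ways on the arrays.

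**Figure D2:**
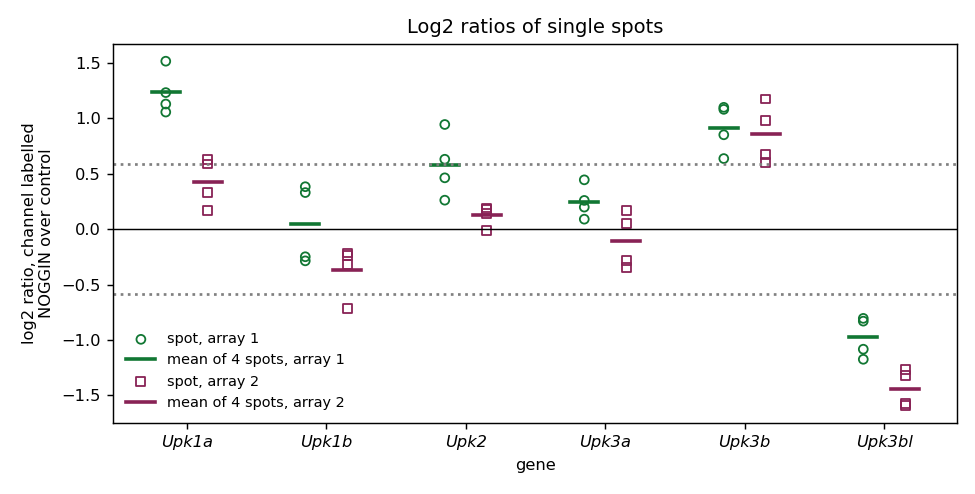
Log2 ratio of single spots (open symbols) and the mean of 4 spots (bars) on each array for the uroplakins and Upk3bl, with dotted lines at 1.5-fold. The spots of Upk1a and Upk3b are all above 0, and those of Upk3bl are all below.

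By count, 3 of 5 uroplakins were higher on both arrays by any size, 0 were lower on both and 2 had opposite signs, where 20.4% of all genes were higher on both and 23.3% were lower on both. The median of the 5 mean log2 ratios was 0.35, against -0.01 over all genes. On array 1 the uroplakin median was 0.58 and on array 2 it was 0.13, so the size rests in large part on array 1.

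The order among the uroplakins was nearly the same on the arrays. On both arrays Upk2 was above Upk3a and Upk3a above Upk1b, with Upk1a and Upk3b above all 3. Of the 10 possible differences between members, 9 had the same sign on both arrays; the exception was Upk1a against Upk3b, which differed by 0.32 on array 1 and by -0.43 on array 2. Within the tetraspanins, Upk1a exceeded Upk1b by 0.99 ± 0.28 (SD, n = 2) on the log2 ratio scale. Within the pair that leaves the endoplasmic reticulum together, Upk1a exceeded Upk2 by 0.48 ± 0.25. Upk1b minus its partner Upk3a was -0.24 ± 0.05, and Upk1b minus its partner Upk3b was -1.05 ± 0.25. No test of these differences was run, and an exact sign-flip test over 2 arrays cannot go below p = 0.5.

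All 5 uroplakins had a larger ratio on array 1 than on array 2, by as little as 0.06 for Upk3b and by 0.80 for Upk1a. Among the 500 genes nearest to Upk1a in intensity the median difference of array 2 minus array 1 was -0.08, with quartiles of -0.34 and 0.20, and Upk1a itself had -0.80. The lower quartile was -0.35 around Upk1b, which had -0.42. It was -0.42 around Upk2, which had -0.45, and -0.32 around Upk3a, which had -0.35. Around Upk3b the quartiles were -0.41 and 0.19, and Upk3b had -0.06. The gap of Upk1a thus lay far outside the middle range of genes of like intensity, those of Upk1b, Upk2 and Upk3a lay just outside it, and that of Upk3b lay within it. Whether dye or culture made this gap cannot be told apart, because each array is 1 dye orientation and 1 pair of samples.

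**Figure D3:**
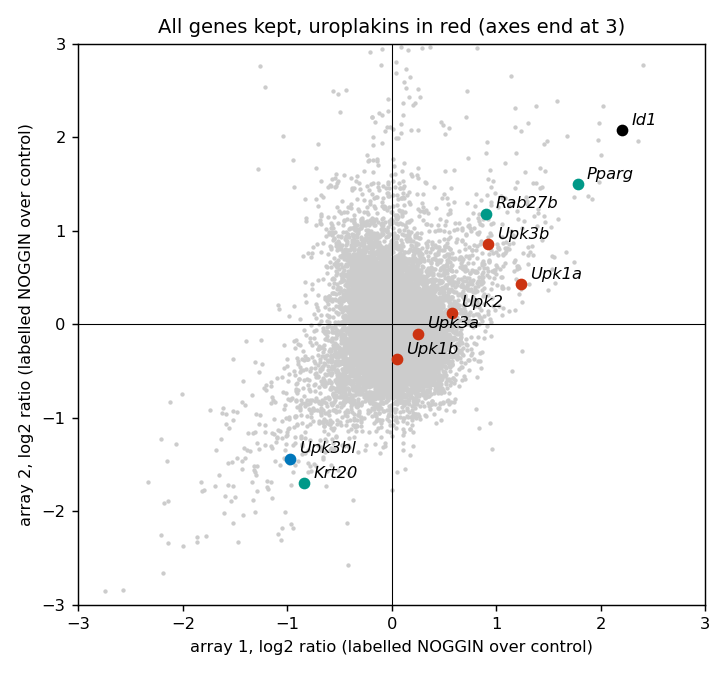
Log2 ratio on array 1 (x axis) against array 2 (y axis) for all genes kept (grey), with uroplakins in red, Upk3bl in blue, Pparg, Rab27b and Krt20 in green and Id1 in black. Upk3b and Upk1a lie on the side of Id1, and Upk3bl lies opposite, at -0.97 and -1.44.

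Upk3bl is a uroplakin 3B-like gene that is not a member by the name rule. It was chosen after its values were seen because it is a neighbour of Upk3b. Its brighter probe lies at chr5:136540130-136540189 (mm9, plus strand), 19.6 kb from the Upk3b probe. Its normalized log2 intensity was 10.34 in NOGGIN 1, 11.31 in control 1, 10.22 in NOGGIN 2 and 11.66 in control 2. The NOGGIN channels were below the control channels, the reverse of Upk3b. The mean log2 ratio was -1.20 ± 0.33 (SD, n = 2; limma 95% interval -1.68 to -0.73, adjusted p = 0.155), and it passed the 1.5-fold rule on the lower side. A second Upk3bl probe, shifted by a few bases and so no independent check, had -1.07. Upk3b exceeded Upk3bl by 1.89 on array 1 and 2.30 on array 2. The probe of Dtx2 lies nearer to that of Upk3b, at 11.8 kb, and had 0.17 on array 1 and -0.20 on array 2.

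The sequence upstream of these genes is shown for Upk1a and Upk3b, the uroplakins with the largest ratios, and for Upk3bl, the neighbour with the opposite ratio. Each is the 250 bases before the RefSeq gene start (build GRCm38.p6), 5′ to 3′ on the gene's strand, with matches to the motifs below in capitals.
Upk1a, chr7:30612735-30612984, minus strand: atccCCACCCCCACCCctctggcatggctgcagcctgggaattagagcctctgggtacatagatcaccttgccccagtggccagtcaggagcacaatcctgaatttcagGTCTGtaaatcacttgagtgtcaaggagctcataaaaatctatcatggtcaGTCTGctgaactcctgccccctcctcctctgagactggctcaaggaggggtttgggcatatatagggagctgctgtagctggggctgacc
Upk3b, chr5:136038246-136038495, plus strand: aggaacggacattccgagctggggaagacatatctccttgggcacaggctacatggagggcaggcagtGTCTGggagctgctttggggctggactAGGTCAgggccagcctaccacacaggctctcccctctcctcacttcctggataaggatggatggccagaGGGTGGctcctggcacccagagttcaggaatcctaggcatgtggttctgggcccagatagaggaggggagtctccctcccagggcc
Upk3bl, chr5:136057017-136057266, plus strand: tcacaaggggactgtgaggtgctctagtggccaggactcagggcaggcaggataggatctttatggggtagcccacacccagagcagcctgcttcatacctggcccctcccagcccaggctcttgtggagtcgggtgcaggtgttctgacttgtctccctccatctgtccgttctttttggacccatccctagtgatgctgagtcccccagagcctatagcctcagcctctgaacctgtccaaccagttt
The RefSeq table matched 3 of the 5 uroplakins, the third being Upk3a. Motifs were searched on both strands. Upk1a held 2 matches to the KLF letters CCACCC, which lie end to end and are found in 28.1% of 32851 such windows, and 2 matches to the SMAD box CAGAC, found in 42.2%. Upk3b held 1 match to CCACCC, 1 to CAGAC and 1 to the PPAR/RXR core AGGTCA, found in 14.0%. Upk3a held 1 match to the GATA letters AGATAA, found in 9.99%. The letters GGCGCC of the GC-rich SMAD site (9.59%), CCGGTT of a GRHL core (5.62%), TGTTTAC of FOXA (3.17%) and TATAAA of a TATA box (12.4%) were in none of the 4 windows, and Upk3bl held no match to any of the 8. A match is a description of letters and not of a binding site.

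Epithelial markers as a whole lay near 0, between Upk1b and Upk3a. The 10 genes had a median log2 ratio of -0.001. On both arrays 3 were higher (20.4% of all genes) and 2 lower (23.3%), with 5 of opposite sign and 0 past 1.5-fold (2.19%). Their mean log2 intensity was 13.87 in NOGGIN 1, 13.89 in control 1, 13.92 in NOGGIN 2 and 13.94 in control 2. The widest values were -0.48 ± 0.38 (SD, n = 2) for Cdh1, the epithelial cadherin, and 0.30 ± 0.29 for Krt8, a keratin of simple and superficial cells.

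Mesothelial markers lay mostly opposite to Upk3b. Of 7 genes listed, 6 were measured, and no probe was matched to the name of the other, Muc16. Of the 6, 5 were lower on both arrays (23.3% of all genes) and 1 was higher (20.4%). Wt1 (-0.90 ± 0.02, SD, n = 2) and Lrrn4 (-0.77 ± 0.11) were 1.5-fold lower on both, as were 1.25% of all genes. The mean log2 intensity of the 6 was 8.77 and 8.80 in the channels labelled NOGGIN. It was 9.17 and 9.23 in those labelled control, with Bnc1 included in both means. Bnc1 was above background in 3 of 8 spots in the channels labelled NOGGIN and in 8 of 8 in those labelled control. It thus passed the filter through the control channels, where it was higher, so its direction is weak evidence. The list median was -0.40, and it was -0.35 where both channels had to exceed background. Msln, which encodes mesothelin, had -0.35 ± 0.30. Wt1 is also a gene of kidney mesenchyme.

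Genes of plaque membrane traffic went both ways. Of 8 measured, 2 were higher on both arrays (20.4% of all genes), 1 was lower (23.3%) and 5 had opposite signs. The median was 0.10, with 0.21 on array 1 and -0.14 on array 2. Rab27b, a small GTPase of the vesicles that carry uroplakin plaques, had log2 ratios of 0.90 and 1.18, a mean of 1.04 ± 0.20 (SD, n = 2; adjusted p = 0.170 in limma's test), and was the only member past 1.5-fold. The 1.5-fold rule was passed by 2.19% of all genes. The other probe of Rab27b had 0.90. Sytl2, a RAB27 effector, lay on the other side with -0.44 ± 0.31. Mal, which aids the arrival of uroplakins at the apical membrane, had 0.51 on array 1 and -0.08 on array 2. Snx31, a sorting nexin that binds uroplakins, was above background in 4 of 8 spots per condition and had 0.06 ± 0.47.

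Transcription factors of urothelial differentiation leaned to the side of Upk1a and Upk3b. Of 8 measured, 5 were higher on both arrays, against 20.4% of all genes, 0 were lower on both and 3 had opposite signs. The median was 0.29, but it was 0.48 on array 1 and 0.14 on array 2, so like the uroplakin median its size rests in large part on array 1. Pparg, a nuclear receptor that promotes superficial differentiation, was the only one past 1.5-fold, with 1.64 ± 0.20 (SD, n = 2; adjusted p = 0.0990 in limma's test). Of all genes, 2.19% passed the 1.5-fold rule. Rxra, which dimerises with Pparg, had 0.39 on both arrays. Grhl3, a grainyhead factor of terminal urothelial differentiation, had 0.45 ± 0.33, and Klf5 had 0.79 on array 1 and -0.20 on array 2.

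Layer keratins lay mostly opposite to Upk3b, Upk1a and Upk2. Of 7 measured, 5 were lower on both arrays (23.3% of all genes) and 2, Krt8 and Krt18, were higher (20.4%), with a median of -0.65. Krt20, which like the uroplakins marks superficial cells, had -0.84 and -1.70, a mean of -1.27 ± 0.61 (SD, n = 2; adjusted p = 0.220). The basal keratins Krt14 and Krt15 had -0.86 ± 0.65 and -0.83 ± 0.29. Krt20 and Krt15 were 1.5-fold lower on both arrays, as were 1.25% of all genes. Genes of superficial cells thus had no common direction. Upk3b, Upk1a, Upk2 and Krt8 lay on the side of Id1 and Krt20 on the other, while Upk3a and Upk1b changed sign between the arrays. None of these lists held a gene past the adjusted p in limma's test.

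**Figure D4:**
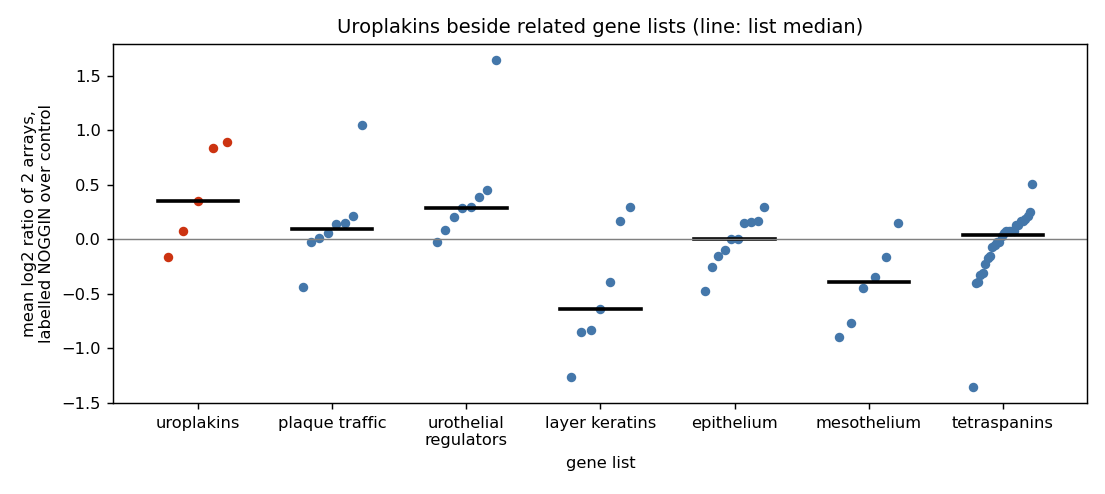
Mean log2 ratio over 2 arrays (y axis) of the uroplakins (red) and of single genes in related lists (blue), with a line at each list's median. The uroplakin median is 0.35, that of the regulators 0.29 and that of the keratins -0.65.

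The uroplakin values kept their signs under other processing of both arrays. Each gene had a single probe with no flagged spot and all spots above background. Settings for the filter, outlier spots, averaging over probes, variance or thresholds therefore could not alter its ratio. Upk3b ran from 0.88 to 1.21 and Upk1a from 0.80 to 0.88 over 12 other settings, and the highest values of Upk3b came from the processed signals (1.21) and the authors' deposited table (1.21). In the authors' deposited table, Upk3b is listed at signed folds of -2.39 and -2.23, Upk1a at -2.25 and -1.44 and Upk2 at -1.60 and -1.06, the same sign as Id1 there. The authors' deposited table lists Upk3bl at 2.10 and 2.73, the opposite sign.

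**Figure D5:**
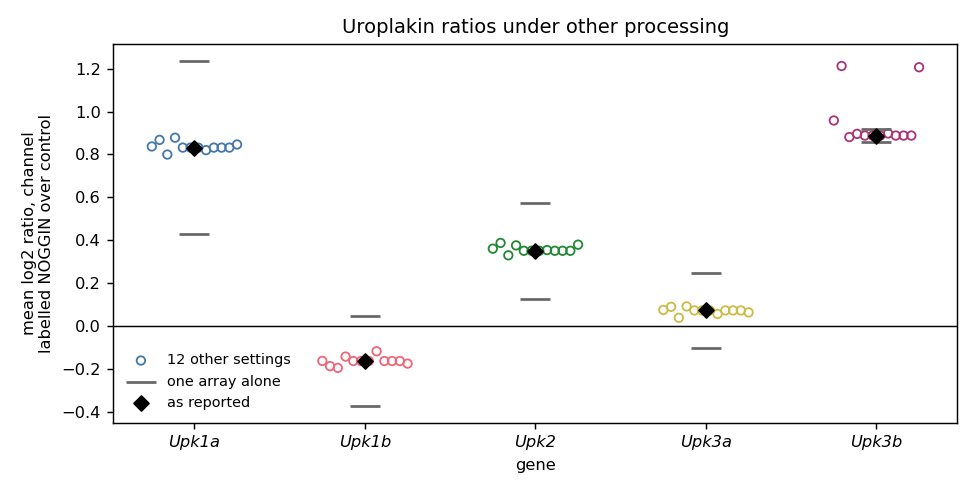
Mean log2 ratio of each uroplakin as reported (diamond), under 12 other settings (circles) and on each array alone (bars). Upk1b and Upk3a have bars on both sides of 0, and those of Upk3b are at 0.92 and 0.86.

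Few genes had ratios close to those of Upk3b, as genes are sparse far from 0. By Euclidean distance between the ratios of the 2 arrays, the nearest were Grin3a (0.07), Ephx2 (0.07) and Sprr2g (0.07), and 5 genes lay within 0.1. Within the same distance were 4 genes for Upk1a, 63 for Upk2, 765 for Upk1b and 992 for Upk3a. These counts fall as the ratios lie further from 0, and with 2 values a gene the likeness is a description only.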

How the data were processed

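The authors' deposited scanner files hold spot intensity values measured with Agilent Feature Extraction 10.7.3.1, per the file headers and the submitters' processing notes. The mean signals are not normalized, the processed signals are background-subtracted and dye-normalized, and the log10 ratio is red over green, per the file headers. The authors also deposited a signed score per probe, a linear fold change whose normalization stays unknown and whose direction is known only by the labelled dyes. Both columns have a median of 1. On the log2 scale their correlation with the red over green ratio was 0.906 for array 1 and -0.952 for array 2, so by the labelled dyes they are control over NOGGIN.

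Mean signals were background-corrected by normexp (offset 50), then normalized within each array by loess in limma 3.58.1 (R 4.3.3), in which control spots had weight 0. Flagged spots (3.36% and 3.09%) were left out and a probe's 4 spots averaged. Probes above background in most spots of at least 1 channel on both arrays were kept, and a gene took its brightest probe. Channel intensities were also scaled between arrays by the Aquantile method. Names were updated through RefSeq (28328 probes matched). Ratios were fitted across all genes with limma's lmFit and eBayes, 1 residual and 4.35 prior degrees of freedom, with two-sided p-values and Benjamini-Hochberg adjustment across all genes; intervals use the same fit. The fit was tested on simulated data. Slide and scan are shared by both conditions of an array.

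The members, gene lists, motifs and alternatives were chosen with earlier results of these data known. Named were the uroplakins, Id1, the 2 members of each list with the largest absolute mean and those past 1.5-fold, and the 3 genes nearest to a uroplakin past 1.5-fold. Other genes, among them Upk3bl, Hspb6, Rxra, Klf5, Mal, Snx31, Msln, Bnc1, Krt18, Acta2, Tek and Kdr, were chosen after their values were seen. The lists were plaque traffic, urothelial regulators, layer keratins, tetraspanins, BMP targets and markers of epithelium, mesothelium, mesenchyme, smooth muscle and endothelium. Figures were drawn with matplotlib 3.10.9.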

Additional observations from a re-analysis of the deposited data

How the results depend on the processing

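Other settings ran from the background correction to the thresholds, and used the authors' values or 1 array. Processed signals replaced background correction and normalization together, trend and robust variance were set together, and so were the looser p and stricter fold. All 5 uroplakins kept their direction and stayed short of the adjusted threshold in 12 settings over both arrays, with adjusted p in limma's test from 0.129 to 1 for Upk3b and from 0.299 to 1 for Upk1a. Upk2 ran from 0.33 to 0.39, Upk3a from 0.04 to 0.09 and Upk1b from -0.19 to -0.12. Settings for the filter, outlier spots, averaging over probes, variance or thresholds could not alter a uroplakin ratio. On single arrays, which give no test, Upk1a ran from 0.43 to 1.23, Upk2 from 0.13 to 0.58, Upk3a from -0.10 to 0.25, Upk1b from -0.37 to 0.05 and Upk3b from 0.86 to 0.92. Upk2, Upk3a and Upk1b were in this order below the other members in all 15 settings, including those that could not alter a ratio. Upk1a was above Upk3b in 1, array 1 alone. The 1 uroplakin past 1.5-fold became 0 at 2-fold and ran from 1 to 2 on single arrays.

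Over all genes, 0 passed the adjusted threshold in limma's test as reported, and 1348 had an unadjusted p under 0.05. The count was 141 with trend and robust variance, 114 with median centring, 100 where both channels had to exceed background, 43 when 0.1 was the threshold, 35 without background correction and 22 if outlier spots stayed in. By the 1.5-fold rule 488 genes passed; 840 did on processed signals, 149 did at 2-fold, and single arrays gave 961 to 2631. The causes were not tested.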

Other observations

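Other tetraspanins, the family of Upk1a and Upk1b, went both ways. Of 26 measured, 7 were higher on both arrays (20.4% of all genes), 9 were lower (23.3%) and 10 had opposite signs. The median was 0.04, with 0.04 on array 1 and -0.08 on array 2. Tspan1, a tetraspanin of epithelia, had log2 ratios of -1.36 and -1.35 (mean -1.36 ± 0.01, SD, n = 2; adjusted p = 0.102 in limma's test) and was the only one past 1.5-fold. That rule was passed by 2.19% of all genes. Tspan8 lay on the other side, with 0.51 and 0.50. The sign of Tspan1 was thus opposite to that of Upk1a.

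Within 50 kb of a uroplakin probe in the mm9 positions of the files, 22 other genes were measured, and Upk3bl was the only one past 1.5-fold on both arrays, a rule that 2.19% of all genes passed. Upk1a had 10 such neighbours, of which Hspb6, a small heat shock protein gene 47.7 kb away, had 0.98 on array 1 and 0.58 on array 2. Dtx2, the other neighbour of Upk3b, had 0.17 and -0.20.

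The other cell types of the ureter are set beside all genes, of which 23.3% were lower on both arrays and 20.4% higher on both. Of 8 mesenchymal markers, 6 were lower on both arrays (median -0.27). Tbx18, a factor of ureteric mesenchyme, had 0.77 ± 0.17 (SD, n = 2) and Col3a1 had -0.80 ± 0.34. Of 5 smooth muscle markers, 4 were lower on both arrays, among them Tagln (-0.98 ± 0.23) and Cnn1 (-0.80 ± 0.16), and Myocd was higher (1.05 ± 0.16). Their median was -0.79, with -0.92 on array 1 and -0.41 on array 2, and Acta2, the median gene, had -1.39 and -0.18. Of 5 endothelial markers, 3 were higher on both arrays, among them Pecam1 (0.34 ± 0.39) and Cdh5 (0.21 ± 0.16), Tek was lower (-0.16 and -0.22) and Kdr had opposite signs (0.37 and -0.12). Their median was 0.17, with 0.29 on array 1 and 0.05 on array 2. By the dye labels, all 5 BMP targets were higher with NOGGIN, by 1.5-fold or more on each array, as were 0.941% of all genes. The targets were Id2 (2.59 ± 0.26), Id1 (2.14 ± 0.09), Id3 (1.45 ± 0.03), Smad6 (0.95 ± 0.19) and Smad7 (0.78 ± 0.16). A rise of BMP targets is the reverse of what the capture of BMPs by NOGGIN would give. Their sign, like that of the uroplakins, turns if the dye labels are wrong. Which reading is right was not tested. The part of cell numbers in the uroplakin values was not tested.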
